A study of Gallus gallus with 12 samples.

Results

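RET, GFRA1, ELAVL4 and TUBB3 are genes of the enteric nervous system, the network of neurons and glia that runs through the gut wall. They were taken by gene symbol from a count table of spatially barcoded RNA of the embryonic chick gut. All 4 were present among its 17138 genes. In the RefSeq annotation of GRCg7b, RET and GFRA1 lie on chromosome 6, ELAVL4 on chromosome 8 and TUBB3 on chromosome 11, so none is on a sex chromosome.

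Enteric neurons and glia descend from neural crest cells that migrate into and along the gut. RET, a receptor tyrosine kinase, and GFRA1, its membrane-anchored co-receptor, together bind GDNF, a growth factor made by gut mesenchyme, and this signal drives the migration, growth and survival of the crest cells. ELAVL4 (HuD) is an RNA-binding protein of differentiating neurons, and TUBB3 is the beta-tubulin of neuronal axons. None of the 4 is a glial marker. The glial genes of the pathway lists stand in for that side below. The neurons gather in a myenteric plexus outside the circumferential muscle and a submucosal plexus on its inner side.

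The tissue was chick intestine at embryonic day 14, from eggs kept at 38 °C. The 3 groups of 4 samples were midgut carrying RCAS-mGFP, a retroviral vector with a membrane green fluorescent protein, midgut carrying RCAS-Hoxd13, which misexpresses the hindgut gene Hoxd13, and hindgut labelled RCAS-mGFP. Every group thus carried a retroviral construct, delivered by electroporation at Hamburger-Hamilton stage 17 into the splanchnic lateral plate mesoderm at midgut level. The construct enters mesoderm, whereas enteric neurons and glia come from the neural crest, and the labels do not say which cells were infected by day 14 or whether the 4 samples of a group came from different embryos. The p-values therefore measure only the spread between these samples.

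In each section, light was used to barcode 3 regions drawn by hand. One was the mesenchyme under the epithelium, and the others were the inner longitudinal muscle layer and the side of the circumferential muscle that faces the lumen. The study used the mesenchyme alone for its comparisons. The mesenchyme libraries held 210803 to 903222 counts each, with a median of 356599. The muscle libraries were shallower, with medians of 40113.5 (range 19920 to 112252) for the circumferential and 19703.5 (range 11233 to 49535) for the longitudinal layer. Levels are given as CPM, the counts of a gene per 1000000 counts of its sample and layer. They are not divided by transcript length, so levels are compared between samples and not between genes.

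HOXD13 had 155 to 238 counts per mesenchyme sample in the Hoxd13 midgut, 0 in every midgut sample and 1 to 8 in the hindgut, as the labels say. The 3 genes of the W chromosome, which females carry, together measured 0 to 3.3 CPM in midgut mesenchyme and 122 to 162 in the Hoxd13 midgut. The sex of the embryos and the construct thus cannot be told apart between these groups. In hindgut mesenchyme the W genes measured 37.6 CPM in replicate 1 and 104 to 156 in the other samples. Sex and gut region thus cannot be told apart between hindgut and midgut either. Mitochondrially encoded genes took 35.9% to 39.0% of mesenchyme counts in midgut, 40.7% to 42.7% in the Hoxd13 midgut and 27.5% to 35.5% in the hindgut. Fits without these genes were among the alternatives covered at the end. Their part in the results was not otherwise tested. Hindgut replicate 1 stood apart. Its mesenchyme was the deepest library, at 903222 counts. The 10 epithelial genes in the table summed to 3173 CPM in it, against 769 to 938 in the other hindgut samples, 2158 to 3222 in midgut and 2009 to 2372 in Hoxd13 midgut. The hindgut values below include this sample unless its omission is stated.

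Marker genes of enteric neurons and glia were counted in every layer. VIP, a neuropeptide of enteric neurons, had 130 counts over the 12 mesenchyme samples, 18 in the longitudinal and 34 in the circumferential muscle. SOX10, a transcription factor of enteric progenitors and glia, had 135, 12 and 16 counts in the same order. These are bulk counts of a region, so fewer neurons and less RNA per neuron cannot be told apart.

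The receptor genes had low counts in the mesenchyme. GFRA1 did not pass the model's test between groups, and RET could be tested only by permutation. RET measured 25.7, 29.3, 32.9 and 11.6 CPM in the midgut samples, 19.0, 18.9, 27.6 and 14.7 in the Hoxd13 midgut, and 29.9, 19.0, 22.9 and 15.4 in the hindgut, in replicate order. The 3 ranges overlapped almost wholly. These levels rest on 4 to 27 counts a sample, and RET fell below the count filter of the model. The summed hindgut level was 0.979 times that of midgut (exact 95% interval 0.611 to 1.58, from 44 and 34 counts), and the Hoxd13 level 0.802 times (0.471 to 1.36, from 29 and 34 counts). These intervals cover counting error only. In exact two-sided permutation tests over samples the raw p was 0.629 for hindgut against midgut (n = 4 a group), 0.429 for Hoxd13 against control midgut and 0.657 for hindgut against Hoxd13 midgut. The smallest p such a test can give is 0.0286, so 1 test alone could not pass after adjustment over the 27 tests between groups.

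GFRA1 measured 16.4, 22.8, 13.2 and 34.8 CPM in midgut mesenchyme, 19.0, 21.6, 15.3 and 17.2 in the Hoxd13 midgut and 28.8, 23.7, 34.4 and 37.4 in the hindgut. All 4 hindgut samples were above all 4 Hoxd13 midgut samples, and the hindgut overlapped with midgut through midgut replicate 4. The share of all genes that separated in this way is not given here. Compared with the scaling of the model, total counts raise the median of all genes in hindgut against Hoxd13 midgut, as given at the end. The model, edgeR's quasi-likelihood test over 4176 genes with Benjamini-Hochberg adjustment, gave a log2 difference of 0.54 ± 0.36 (SE) between hindgut and Hoxd13 midgut, which did not pass (adjusted p = 0.462). Between hindgut and midgut it gave 0.50 ± 0.35 (adjusted p = 0.598) and between Hoxd13 and control midgut -0.04 ± 0.39 (adjusted p = 0.974).

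ELAVL4 was the member with the largest fitted differences from midgut in the mesenchyme. It measured 119, 150, 132 and 104 CPM in the midgut samples, from 36 to 51 counts each. In the Hoxd13 midgut it measured 73.4, 67.6, 85.8 and 54.0 CPM, from 22 to 28 counts. In the hindgut it measured 143, 42.7, 57.4 and 46.2 CPM, from 129, 9, 15 and 21 counts. All 4 Hoxd13 samples and 3 of the 4 hindgut samples lay below every midgut sample, while hindgut replicate 1 lay with the midgut. Of the 18 other enteric genes with at least 100 counts, DCX, SYP, VIP and ERBB3 had all 4 Hoxd13 samples below every midgut sample. TUBB3, STMN2, NOS1, NCAM1 and ECE1 had 3 Hoxd13 samples below every midgut sample, and GAP43 and EDNRB had 3 above. The share of all genes that separated in this way is not given here. Compared with the scaling of the model, total counts lower the median of all genes in Hoxd13 against control midgut, as given at the end.

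With all samples, ELAVL4 did not pass in any mesenchyme comparison. The log2 difference from midgut was -0.66 ± 0.26 in the Hoxd13 midgut (adjusted p = 0.184) and -0.67 ± 0.25 in the hindgut (adjusted p = 0.187). Hindgut and Hoxd13 midgut differed by -0.01 ± 0.27 (adjusted p = 0.995). Both differences from midgut share the same 4 midgut samples. None of the 3 members that the model could test was called in any of these comparisons, in which 1.48% of the 4176 genes were called between hindgut and midgut, 2.66% between Hoxd13 and control midgut and 3.78% between hindgut and Hoxd13 midgut.

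Leaving out hindgut replicate 1 changed both calls. The hindgut then fell by 1.24 ± 0.24 on the log2 scale against midgut (adjusted p = 8.0e-05) and the Hoxd13 midgut fell by 0.67 ± 0.19 (adjusted p = 0.0211). The same fit called 19.6% and 7.52% of all 4214 genes in these comparisons, against 14.9% between hindgut and Hoxd13 midgut, where ELAVL4 gave -0.57 ± 0.26 (adjusted p = 0.146). A fit of Hoxd13 and control midgut alone also put ELAVL4 past the threshold, at -0.68 ± 0.19 (adjusted p = 0.0148), with 10.1% of its 3602 genes called. The fitted size of the Hoxd13 difference barely moved between these fits. Its standard error was smaller without the hindgut sample that stands apart.

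TUBB3 in the same libraries did not separate the groups. It measured 138, 130, 105 and 101 CPM in midgut mesenchyme, 128, 89.2, 98.1 and 101 in the Hoxd13 midgut, and 145, 90.1, 99.4 and 106 in the hindgut. The groups overlapped, though 3 Hoxd13 samples lay below every midgut sample, and the highest hindgut value was again replicate 1. The log2 difference from midgut was -0.01 ± 0.18 in the Hoxd13 midgut (adjusted p = 0.994) and -0.08 ± 0.18 in the hindgut (adjusted p = 0.933).

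**Figure D1:**
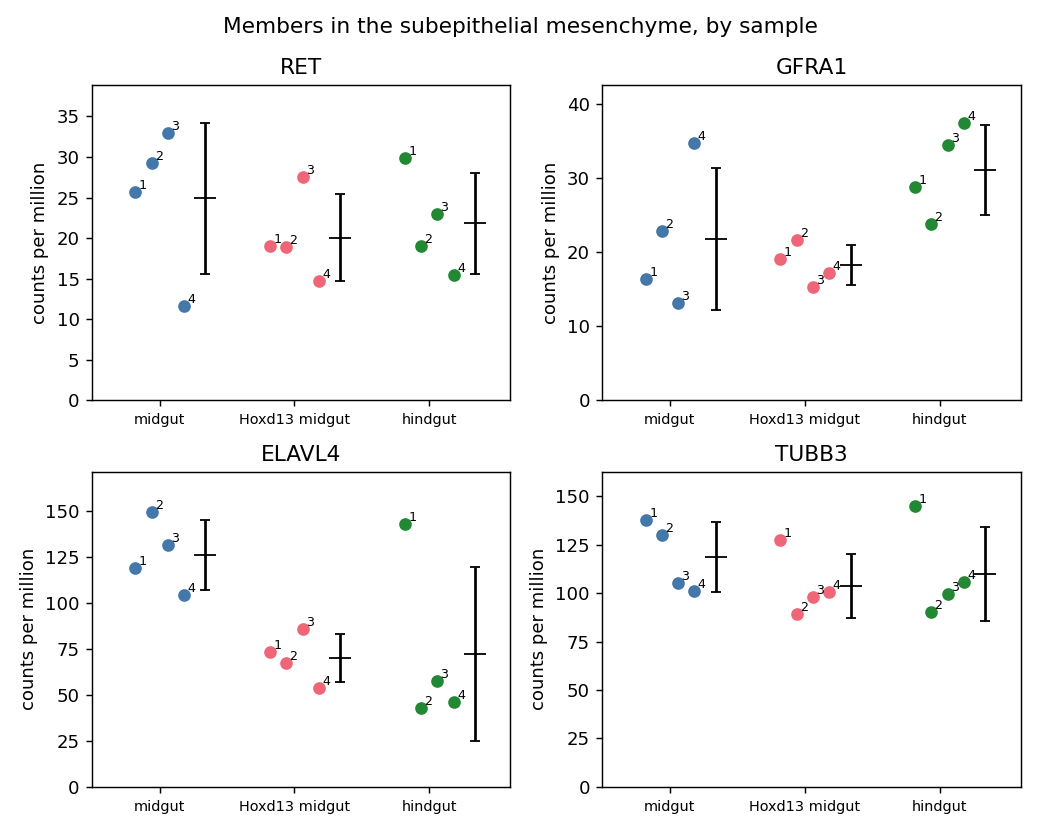
CPM of each member in the subepithelial mesenchyme. Each point is 1 sample with its replicate number, and the black bar is the mean ± SD of 4 samples. ELAVL4 in all 4 Hoxd13 samples (54.0 to 85.8) lies below every midgut sample (104 to 150), and hindgut replicate 1 (143) lies apart from the other hindgut samples (42.7 to 57.4). The share of all genes that separate in this way is not given, and scaling by total counts lowers the median of all genes in Hoxd13 against control midgut.

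The number of ELAVL4 counts per TUBB3 count needs no scaling between libraries. It was 0.864, 1.15, 1.25 and 1.03 in the midgut mesenchyme samples, 0.574, 0.758, 0.875 and 0.537 in the Hoxd13 midgut and 0.985, 0.474, 0.577 and 0.438 in the hindgut. Only midgut replicate 1 and Hoxd13 replicate 3 crossed between those 2 groups. From the summed counts the ratio was 1.04 in midgut (exact 95% interval 0.837 to 1.30), 0.667 in Hoxd13 midgut (0.514 to 0.862) and 0.777 in hindgut (0.634 to 0.951). Hindgut replicate 1 supplied 129 of the 174 ELAVL4 counts of the hindgut, and without it the hindgut ratio was 0.484 (0.331 to 0.698). These intervals cover counting error only. This ratio was chosen after the levels were seen and is given with no test.

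Epithelial markers and ELAVL4 were both high in hindgut replicate 1 and both low in the other hindgut mesenchyme samples. Within the midgut groups the order was mixed. In midgut, replicate 4 had the highest epithelial sum, 3222 CPM, and the lowest ELAVL4, 104 CPM. ELAVL4 was highest there in replicate 2, at a sum of 2513 CPM, and replicate 1 had the lowest sum, 2158 CPM. In the Hoxd13 midgut, replicate 4 likewise had the highest sum, 2372 CPM, and the lowest ELAVL4, 54.0 CPM. The other Hoxd13 samples had sums of 2013, 2009 and 2157 CPM in replicate order, and among them ELAVL4 rose with the sum. The epithelial sum was high in midgut and in hindgut replicate 1, where ELAVL4 was high, and low in the other hindgut samples. It was 2009 to 2372 CPM in the Hoxd13 midgut, a range that held only replicate 1 of the midgut samples, at 2158 CPM. The part of the epithelium in the ELAVL4 differences was not tested. Of the 9 genes of hormone-producing epithelial cells in the table, which share secretory proteins with neurons, the summed level was 49.4 to 92.7 CPM in midgut, 13.6 to 46.0 in the Hoxd13 midgut, 86.4 in hindgut replicate 1 and 26.8 to 44.0 in the other hindgut samples. Most of these counts came from SCG2 and CHGA, proteins of secretory granules. SCG2 had 55 counts in midgut mesenchyme, 24 in the Hoxd13 midgut, 44 in hindgut replicate 1 and 8 in the other hindgut samples together, and CHGA had 27, 5, 20 and 4 in the same order. Other genes of the list had other orders, with 9, 16, 6 and 9 counts of SCG5, a granule chaperone, and 1, 3, 1 and 2 of CHGB. PCSK1, a hormone-processing protease, had 4, 3, 6 and 4 counts, and the hormone gene SST had 3, 1, 1 and 6. Over the 12 samples NEUROD1, a transcription factor of hormone cells and neurons, had 2 counts, TPH1, an enzyme of serotonin synthesis, had 1, and GHRL, which encodes ghrelin, had 0. The part of these cells in the ELAVL4 differences was not tested.

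**Figure D2:**
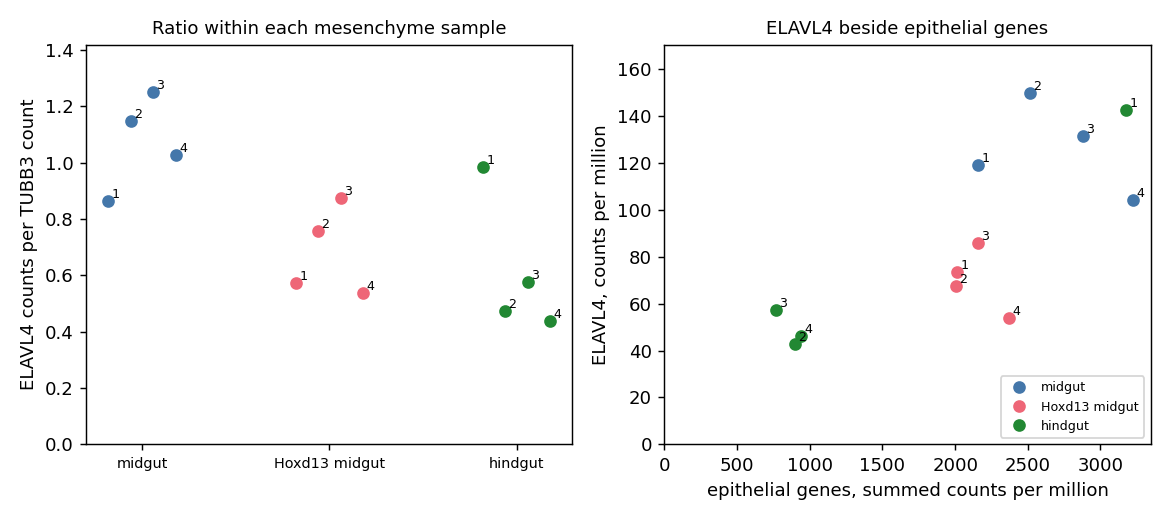
Left, ELAVL4 counts divided by TUBB3 counts in each mesenchyme sample. Right, ELAVL4 in CPM against the summed CPM of 10 epithelial genes, with replicate numbers. Hindgut replicate 1 sits at 143 CPM of ELAVL4 and 3173 CPM of epithelial genes, and the other hindgut samples at 42.7 to 57.4 and 769 to 938.

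The muscle layers gave few counts of each member. In the circumferential muscle RET had 0, 2, 2 and 2 counts in the midgut samples, 1, 1, 0 and 0 in the Hoxd13 midgut and 7, 1, 1 and 7 in the hindgut. The mean level was 40.2 ± 27.2 CPM (SD, n = 4) in midgut, 10.7 ± 12.7 in Hoxd13 midgut and 69.3 ± 49.5 in hindgut. Summed, the hindgut had 7.73 times the Hoxd13 midgut level, with a wide counting interval of 1.82 to 69.3 from 16 and 2 counts, and 8.78 times without hindgut replicate 1 (1.82 to 83.5, from 9 and 2 counts). The exact two-sided permutation test over samples gave p = 0.0571 (n = 4 a group, adjusted p = 0.887), where 0.0286 is the smallest it can give, and 3 of 4 hindgut samples exceeded every Hoxd13 sample. It was the lowest p of 27 such tests between groups. With 27 tests adjusted together, 1 test alone at the smallest p of 0.0286 could not pass, so that none passed decides nothing.

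GFRA1 in the circumferential muscle had 4 counts over the midgut samples, 8 over the Hoxd13 midgut and 7 over the hindgut, and in the longitudinal muscle 4, 1 and 5. Every one of these group levels had counting intervals that overlapped the others. RET in the longitudinal muscle had 4, 4 and 6 counts in the same order, and a difference in either receptor gene between groups was not detectable in this layer at this depth.

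ELAVL4 in the circumferential muscle had 4, 8, 5 and 5 counts in midgut, 5, 9, 8 and 6 in the Hoxd13 midgut and 22, 6, 0 and 9 in the hindgut. As levels these were 127 to 200 CPM in midgut, 89.8 to 225 in Hoxd13 midgut, and 196, 149, 0 and 180 in hindgut. The 0 of hindgut replicate 3 comes from 19920 counts in all, where the limit of 3 counts taken for a count of 0 is 151 CPM. The summed Hoxd13 level was 0.825 times the midgut level (exact 95% interval 0.455 to 1.51), an interval that also holds the ratio of 0.554 seen in the mesenchyme (0.430 to 0.712). In the longitudinal muscle the summed counts were 8, 9 and 18, of which hindgut replicate 1 had 10, and that layer's ratio of Hoxd13 to midgut was 0.750 (0.257 to 2.24).

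TUBB3 in the longitudinal muscle had 8, 2, 2 and 7 counts in midgut, 4, 2, 2 and 2 in the Hoxd13 midgut and 13, 1, 0 and 5 in the hindgut. The summed Hoxd13 level was 0.351 times that of midgut (exact 95% interval 0.146 to 0.794 for counting error only). Between samples the exact two-sided permutation test gave p = 0.143 (n = 4 a group, adjusted p = 0.887). In the circumferential muscle the summed counts were 28, 28 and 41, and the Hoxd13 level was 0.648 times that of midgut (0.370 to 1.14).

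All 4 members had higher levels in both muscle layers than in the mesenchyme when counts were summed over the 3 groups, with or without hindgut replicate 1. Over the 12 samples of each layer, RET was at 22.8 CPM in the mesenchyme, 53.5 in the longitudinal and 41.6 in the circumferential muscle, from 107, 14 and 24 counts. GFRA1 was at 24.3, 38.2 and 32.9 CPM from 114, 10 and 19 counts, ELAVL4 at 95.8, 134 and 151 CPM from 449, 35 and 87 counts, and TUBB3 at 116, 183 and 168 CPM from 543, 48 and 97 counts. Within groups the direction was not uniform. In the Hoxd13 midgut, RET was lower in the circumferential muscle (9.30 CPM against 19.7 in the mesenchyme), and GFRA1 (10.1 against 18.3) and TUBB3 (101 against 104) were lower in the longitudinal muscle, as was ELAVL4 in midgut (122 against 125). By sample, RET was higher in the circumferential muscle in 8 of 12 and in the longitudinal muscle in 7, and GFRA1 in 9 and 5. Exact paired permutation tests by sign flips against the mesenchyme gave raw p = 0.143 and 0.112 for RET in the same order. They gave 0.309 and 0.381 for GFRA1, and 0.160 for ELAVL4 in the longitudinal muscle. None of these passed, so the summed levels alone do not establish a difference for these genes. Among 5062 genes with at least 100 counts, 34.6% had a higher summed level in the circumferential muscle than in the mesenchyme and 39.6% in the longitudinal muscle.

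TUBB3 was the 1 member that passed the filter for the model of the layers. This model kept each sample as a block and tested 614 genes. TUBB3 passed only through muscle samples, with up to 559 CPM in longitudinal and 301 in circumferential muscle, against at most 145 in the mesenchyme. Being admitted through the layers where it was high favours a higher level there, so the call below is not support for a difference. TUBB3 was higher in the circumferential muscle than in the mesenchyme by 0.63 ± 0.20 on the log2 scale (edgeR's quasi-likelihood test, adjusted p = 0.00823) and in 10 of 12 samples. In this comparison 40.1% of the genes tested were called. Without hindgut replicate 1 the difference was 0.56 ± 0.24 (adjusted p = 0.0606), without hindgut replicate 4 it was 0.49 ± 0.22 (adjusted p = 0.0644) and without midgut replicate 4 it was 0.45 ± 0.22 (adjusted p = 0.101), so the call rests on these samples. It was also lost with no count filter (0.13 ± 0.22, adjusted p = 0.927), a fit in which the 614 genes as a whole shifted by a median of -0.50. Longitudinal muscle against mesenchyme gave 0.64 ± 0.27 (adjusted p = 0.0859, 6 of 12 samples above, 20.8% of genes called), and the muscle layers differed from each other by 0.01 ± 0.31 (adjusted p = 0.991, 5.86% called).

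ELAVL4 was at 142 CPM in the circumferential muscle and 89.6 in the mesenchyme as means over samples, and was higher in 10 of 12 samples. An exact paired permutation test by sign flips over the 12 samples gave p = 0.0103, which was 0.0923 after adjustment over the 9 such tests. With no count filter, the fit whose overall shift is given above, the model gave ELAVL4 0.31 ± 0.23 on the log2 scale (adjusted p = 0.520). With no filter and, in addition, the scaling factors of the filtered genes, a pair of choices added after the data were seen, it gave 0.76 ± 0.22 (adjusted p = 0.0247), with 2.23% of 17138 genes called, so this call depends on the scaling. With 1 sample left out, ELAVL4 passed the count filter only in some fits. In those the edgeR test gave 0.68 to 0.84 (adjusted p from 0.00191 to 0.0198), so a value there depends on which sample is left out. ELAVL4 passed the filter in those fits only through muscle samples, with up to 304 CPM in longitudinal and 225 in circumferential muscle, against at most 150 in the mesenchyme. These values are thus not support for a higher level in muscle. The ratio of the summed RET level in the circumferential muscle to that in the mesenchyme was 1.75 in midgut (exact 95% interval 0.601 to 4.22, from 6 muscle counts), 0.472 in the Hoxd13 midgut (0.0546 to 1.87, from 2) and 2.99 in the hindgut (1.58 to 5.41, from 16). Without hindgut replicate 1 the hindgut ratio was 4.45 (1.75 to 10.6, from 9). These intervals cover counting error and not the spread between samples, and the differences between the ratios were not tested.

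Ranked over the 9 combinations of group and layer, RET was highest in hindgut circumferential muscle and lowest in Hoxd13 circumferential muscle. GFRA1 and TUBB3 were highest in midgut longitudinal muscle and lowest in Hoxd13 longitudinal muscle. ELAVL4 was highest in hindgut longitudinal muscle and lowest in Hoxd13 mesenchyme. In each of the 4 orders, all 8 pairs of neighbours differed by less than the larger of their SDs. These levels are per total counts. Mitochondrial genes took on average 41.9%, 46.6% and 45.7% of them in Hoxd13 mesenchyme, longitudinal and circumferential muscle, against 37.8%, 39.3% and 39.2% in midgut. The part of this scaling in the orders was not tested. On these levels the lowest place was in the Hoxd13 midgut for each member, but for ELAVL4 and TUBB3 only with hindgut replicate 1 included. Without it, ELAVL4 was lowest in hindgut mesenchyme (mean 48.8 CPM, against 70.2 in Hoxd13 mesenchyme) and TUBB3 in hindgut longitudinal muscle (96.7 against 101 in Hoxd13 longitudinal muscle), and 7 of the 8 neighbouring pairs of ELAVL4 differed by less than the larger SD.

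**Figure D3:**
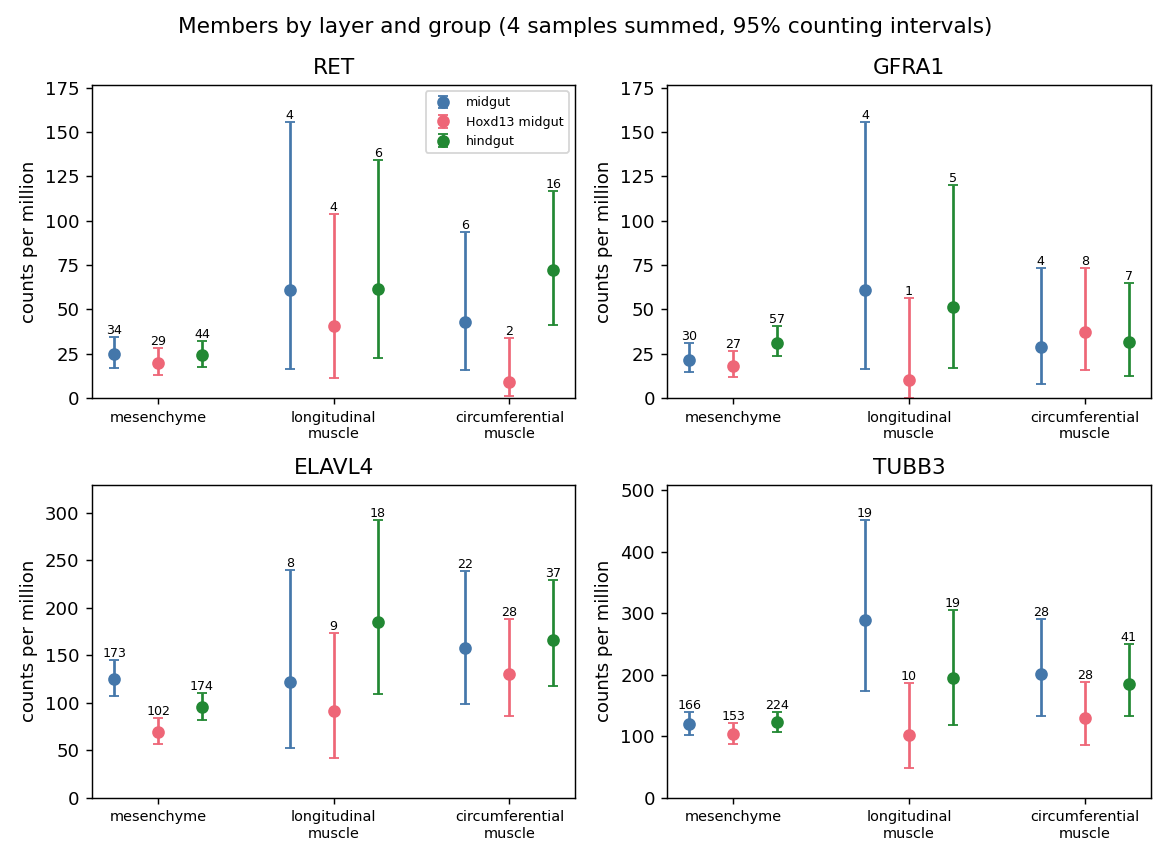
Summed level of each member in CPM by layer and group, over 4 samples, with exact 95% counting intervals. The number above each bar is the count behind the point. The mesenchyme points rest on 27 to 224 counts and the muscle points on 1 to 41, and most muscle intervals overlap.

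The wider pathway was read through 55 genes of neurons, of glia and progenitors, and of GDNF and endothelin signalling, of which 49 were in the table and 19 passed the filter in the mesenchyme, members included. None of the 19 passed the edgeR test in any of the 3 comparisons with all samples. Between hindgut and midgut 8 lay above 0 and 11 below (median log2 difference -0.08, against -0.00 for all genes tested), and 2 had an unadjusted p under 0.05. Between Hoxd13 and control midgut 8 lay above and 11 below (median -0.02, all genes 0.01), with 3 at an unadjusted p under 0.05. Between hindgut and Hoxd13 midgut 6 lay above and 13 below (median -0.04, all genes 0.01), again with 3. Among all 4176 genes of the edgeR test, 582, 702 and 735 had an unadjusted p under 0.05 in the same order. DESeq2 called 0 of the enteric genes to which it gave an adjusted p, which were 3, 19 and 5 genes in the same order. Among the neuronal genes, STMN2, a growth-cone protein, gave -0.52 ± 0.25 in the Hoxd13 midgut (adjusted p = 0.297) and -0.45 ± 0.24 in the hindgut (adjusted p = 0.422), both against midgut. In the same order, NEFM, a neurofilament protein, gave 0.67 ± 0.42 (adjusted p = 0.426) and 0.65 ± 0.40 (adjusted p = 0.527). MAP2 gave -0.24 ± 0.27 (adjusted p = 0.702) and -0.61 ± 0.27 (adjusted p = 0.295). GAP43 gave 0.67 ± 0.30 (adjusted p = 0.241) and -0.12 ± 0.31 (adjusted p = 0.948). Between hindgut and Hoxd13 midgut GAP43 gave -0.79 ± 0.29 (adjusted p = 0.138).

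Of the GDNF and endothelin genes, 5 were tested and none passed in the 3 comparisons with all samples. EDNRB, the endothelin receptor of crest cells, gave 0.85 ± 0.34 in Hoxd13 against control midgut (adjusted p = 0.200), and NCAM1, an adhesion molecule that can also bind GDNF with GFRA1, gave -0.02 ± 0.15 there and 0.30 ± 0.15 in hindgut against midgut (adjusted p = 0.383). GDNF itself, named as the ligand after its counts were seen, had 3 counts in midgut, 9 in Hoxd13 midgut and 9 in hindgut mesenchyme. Of the glial genes, SOX10 gave 0.34 ± 0.37 and 0.51 ± 0.35 in the Hoxd13 midgut and hindgut against midgut, and ERBB3, the neuregulin receptor of glial precursors, -0.19 ± 0.18 and -0.37 ± 0.18. Neither passed.

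Without hindgut replicate 1, 4 of 19 passed in hindgut against midgut. NCAM1 was higher by 0.40 ± 0.13 (adjusted p = 0.0257), and ELAVL4, ERBB3 (-0.63 ± 0.18, adjusted p = 0.00946) and MAP2, a dendrite microtubule protein (-0.87 ± 0.31, adjusted p = 0.0438), were lower. The share of all genes called in that fit was the 19.6% given above. ERBB3 is also expressed in gut epithelium, whose genes were low in those hindgut samples, and the part of the epithelium in this result was not tested. In hindgut against Hoxd13 midgut 1 of 19 was higher in that fit, NCAM1 by 0.44 ± 0.14 (adjusted p = 0.0181), where 14.9% of all genes were called.

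**Figure D4:**
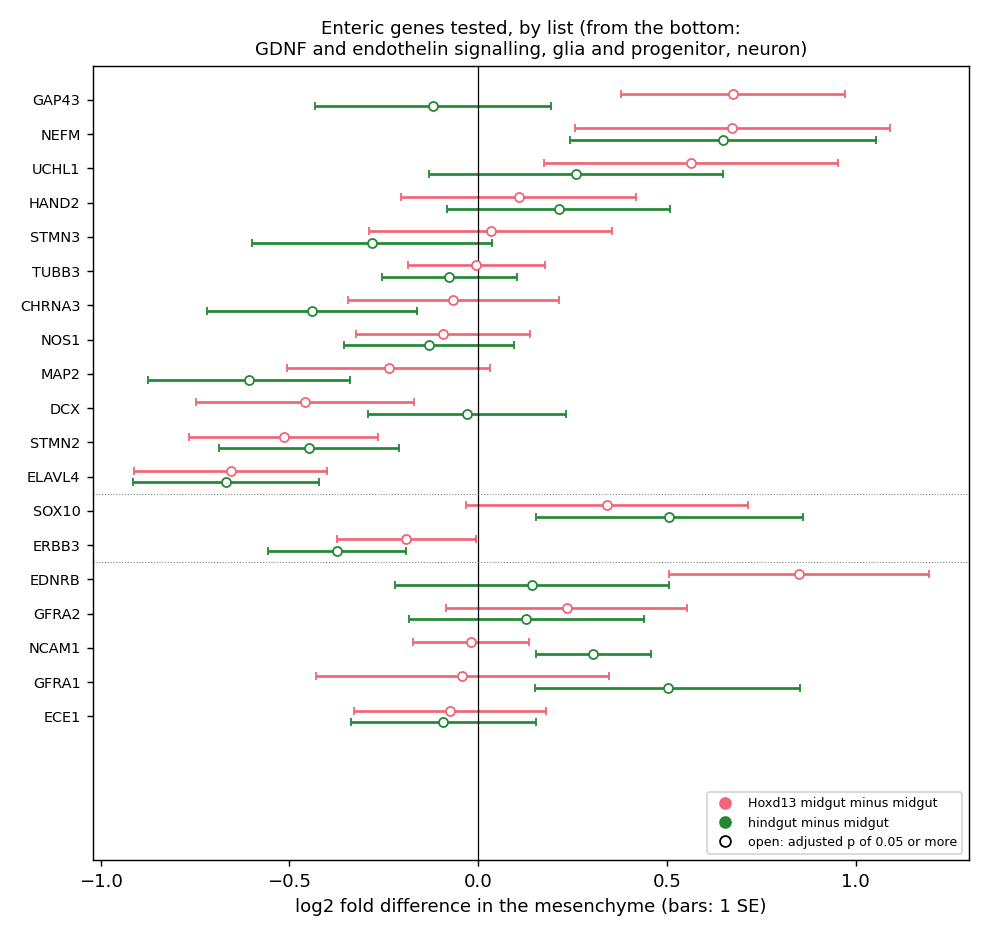
Log2 differences from midgut in the mesenchyme with their SE, for 19 enteric genes that passed the count filter, in the Hoxd13 midgut and the hindgut, from the fit of all samples. Open points have an adjusted p of 0.05 or more, which holds for all 19 in both comparisons. ELAVL4 lies at -0.66 and -0.67, and EDNRB in the Hoxd13 midgut at 0.85.

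Among the neuronal genes that could be tested between layers, NOS1, the nitric oxide synthase of inhibitory motor neurons, was higher in the circumferential muscle than in the mesenchyme by 0.70 ± 0.21 (adjusted p = 0.00461), in 8 of 12 samples, and fell under the count filter without hindgut replicate 1. NOS1 passed this filter only through circumferential samples, with up to 305 CPM there, against at most 213 in the longitudinal muscle and 138 in the mesenchyme. Its differences between the circumferential muscle and the other layers are thus not support for a higher level there. With no filter NOS1 no longer passed (0.22 ± 0.23, adjusted p = 0.757). In longitudinal muscle against mesenchyme NOS1 gave -0.28 ± 0.36 in the edgeR test (adjusted p = 0.630). Against the circumferential muscle it was lower in the longitudinal muscle in 12 of 12 samples, by -0.98 ± 0.37 (adjusted p = 0.111). Of the signalling genes, NCAM1 gave 0.09 ± 0.14 in circumferential muscle against mesenchyme in the edgeR test (adjusted p = 0.643). It was higher in the longitudinal muscle than in the mesenchyme by 0.66 ± 0.16 (adjusted p = 0.0014), in 10 of 12 samples. Without midgut replicate 4 it no longer passed (0.45, adjusted p = 0.0882). With no count filter its direction turned (-0.25 ± 0.19, adjusted p = 0.453), where the 614 genes shifted by a median of -0.88, and with the scaling factors of the filtered genes it was 0.66 ± 0.17 (adjusted p = 0.0361, 0.513% of genes called). By summed level, 13 of 18 other enteric genes with at least 100 counts were higher in the circumferential muscle than in the mesenchyme (median log2 ratio 0.30, all genes -0.15) and 15 of 18 in the longitudinal muscle (median 0.64, all genes -0.12).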

How the data were processed

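Light-seq, which reverse transcribes RNA in tissue sections and barcodes chosen areas with light, was applied to 12 samples in 3 layers. The deposited table holds whole-number counts per gene. Per the submitters' processing notes, UMI-tools, STAR, featureCounts, MultiQC, DESeq2 and the build GRCg6a were used, and none of the sources read states whether a count is a read or a molecule. The deposited counts were tested here with edgeR 4.0.16 (R 4.3.3), with TMM scaling, genes kept by filterByExpr (at least 10 counts in enough samples, 15 in all), a quasi-likelihood test and an adjusted p of 0.05 as threshold. Between layers the sample was a block. The tests were checked on simulated counts with larger changes than the fitted differences of the members, so the check does not cover differences of their size. Members under the filter were tested on CPM of total counts by exact permutation, adjusted within each family of tests. DESeq2 1.42.0, other scalings, filters and samples were alternatives. Intervals are exact (Poisson or conditional binomial, 95%). No pair of samples in a group agreed within sampling noise (0 of 18 pairs in each layer). The other enteric genes that are named passed a test or had at least 100 counts, apart from GDNF, named as the ligand of RET and GFRA1. Not every gene with at least 100 counts is named. Some listed genes are not reported here. The members and lists were chosen with earlier results of these data known.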

Additional observations from a re-analysis of the deposited data

Results flagged for a closer look

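In 3 of the 54 groups of 4 samples examined, 1 sample lay far from the other 3 by Dixon's test. Its chance rate of about 1 in 20 is for continuous values and not for counts of 0 to 2. The number of flags is thus not compared with chance. ELAVL4 in hindgut mesenchyme was 143 CPM in replicate 1 against 42.7 to 57.4 in the others. In that sample the epithelial genes were also high, at 3173 CPM, and their part in this value was not tested. RET in midgut circumferential muscle was at 0 in replicate 1 and at 2 counts in each other sample. GFRA1 in Hoxd13 longitudinal muscle was 35.5 CPM in replicate 3, which is 1 count, and 0 in the others, a pattern that is always flagged.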

How the results depend on the processing

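The number of members called was unchanged under most alternatives. In hindgut against midgut mesenchyme it was 0, and 0 to 1 when 1 sample was left out, the 1 being ELAVL4 without hindgut replicate 1. In Hoxd13 against control midgut it was 0, 1 with only these groups fitted, and 0 to 1 when 1 sample was left out. In circumferential muscle against mesenchyme it was 1, and 0 with no low-count filter, where TUBB3 gave 0.13 ± 0.22 (adjusted p = 0.927). Left-out samples gave 0 to 2 there. The 2 were TUBB3 and ELAVL4. Both passed the filter only through muscle samples, and ELAVL4 passed it only in some of these fits. Of the 36 permutation tests 0 passed, and 0 to 1 when 1 sample was left out, the 1 coming without hindgut replicate 3. For the 27 tests between groups this decides nothing, since 1 test alone could not pass with 4 samples a group. With no filter, the 614 genes tested by layer shifted as a whole, with a median of -0.50 in circumferential and -0.88 in longitudinal muscle against mesenchyme, and NCAM1 in the latter turned to -0.25 ± 0.19 (adjusted p = 0.453). With the scaling factors of the filtered genes, added after the data were seen, that median was 0.01 and TUBB3 gave 0.63 (adjusted p = 0.0643). Total counts in place of TMM, also added later, moved the median of all genes by -0.19 in Hoxd13 against control midgut and by 0.23 in hindgut against Hoxd13 midgut. The calls then split 23 higher and 70 lower against 55 and 56 in the first, 209 and 18 against 94 and 64 in the second, 55 and 0 against 55 and 7 in hindgut against midgut, and 105 and 145 against 129 and 117 in circumferential muscle against mesenchyme. ELAVL4 in Hoxd13 against control midgut ranged from -0.85 to -0.52 over 20 alternatives and was past the threshold in 2. Genes called in all ranged over the alternatives, left-out samples apart, from 2 to 252 (62 as reported) in hindgut against midgut, 66 to 365 (111) in Hoxd13 against control midgut, 71 to 227 (158) in hindgut against Hoxd13 midgut, 82 to 1654 (246) in circumferential muscle and 54 to 2630 (128) in longitudinal muscle against mesenchyme, and 19 to 106 (36) between the muscle layers. With 1 sample left out they ranged from 14 to 825, 37 to 317, 58 to 629, 193 to 272, 73 to 129 and 25 to 41 in the same order. With mitochondrial genes left out or counts thinned to equal depth, no member passed the filter between layers, so these gave no value. Where no reason is stated, the cause was not tested.

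Samples sharing a replicate number in the labels did not deviate together (correlation of deviations -0.28 to 0.12 over 12 pairs, median 0.03, and 1 of 12 samples matched its own number best). No pairing by number was thus seen, but with 4 samples a group these correlations cannot exclude a shared embryo or batch. With the replicate block, ELAVL4 gave -0.73 ± 0.22 in hindgut (adjusted p = 0.0704) and -0.65 ± 0.22 in Hoxd13 midgut (adjusted p = 0.152) against midgut, 0 members passed in either, and 143 and 79 genes were called in all. Depth limits RET and GFRA1 in every layer and all members in muscle.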

Other observations

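The genes whose levels most resembled the summed level of the 4 members over the 9 combinations of group and layer were PSMC1 (Pearson r = 0.97), RAB6A (0.97), EEF1A2 (0.95), CABIN1 (0.95) and MAB21L2 (0.94), among 5058 genes with at least 100 counts, on log2(CPM + 10). By Spearman's rho they ranked between 3 and 29. The 9 points share libraries and depth, so these values are descriptions. Of 18 other enteric genes, 9 were in the top 10%, with STMN2, a growth-cone protein of neurons, at place 16 and HAND2, a transcription factor of enteric neurons, at place 21. Their median r was 0.65, against 0.12 for all genes.

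NOS1 was at its lowest in the muscle of the Hoxd13 midgut. In the circumferential muscle it had 7, 2, 9 and 1 counts there, against 6, 4, 12 and 6 in midgut and 26, 8, 2 and 15 in hindgut, which are means of 81.1, 202 and 208 CPM. In the longitudinal muscle it had 2, 1, 0 and 0 counts in the Hoxd13 midgut, and every hindgut sample (89.0 to 213 CPM) lay above every Hoxd13 sample (0 to 77.2 CPM). In the mesenchyme NOS1 differed by -0.09 ± 0.23 between Hoxd13 and control midgut (edgeR's quasi-likelihood test, adjusted p = 0.890). It was singled out after its values were seen, and it did not pass the filter of the muscle fits. The share of all genes that separated in the same way in the longitudinal muscle is not given here.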
